A study of Mus musculus with 6 samples.

Results

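The compact myelin and myelin membrane genes described here are Mbp, Mog, Mag, Mobp, Cnp, Cldn11, Mal, Opalin and Ermn, taken by their symbols from the 6 gene tables of the series. All 9 were found in every table, among 19943 genes listed in at least 1 table. RNA was sequenced from the medial prefrontal cortex, an area at the front of the cerebral cortex, in C57BL/6 mice. There were 3 control libraries and 3 libraries of mice that lived in social isolation for 3 weeks after weaning, called control 1 to 3 and isolated 1 to 3. The comparison is between mice isolated early in life and controls. The sample labels give an age of 6 weeks for all mice and the text on the series gives 7 weeks. No allele or agent is given for either group, and sex, the housing of the controls and the number of animals behind a library are not given in the sources used here. Whether the 3 libraries per group are 3 separate animals is not stated, so every p-value reflects only how far these libraries differ, which may be technical.

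Myelin is the stack of lipid-rich membrane that oligodendrocytes wrap around axons in the brain, which lets nerve impulses travel fast and feeds the axon. Its layers are pressed together by basic proteins on their inner faces, sealed by tight junctions, and tied to the axon by adhesion molecules on the innermost layer. In the frontal cortex of the mouse, myelin is still being laid down in the weeks after weaning, and oligodendrocytes are the main source of these transcripts in brain tissue.

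Library totals lay between 18226448 and 18606573 expected counts, which are estimates of the reads from each gene. Levels are CPM, that is counts divided by library size after TMM scaling with factors of 0.991 to 1.012. Of the cortical excitatory neuron markers 8 of 8 were measured, among them the vesicular glutamate transporter gene Slc17a7 with control libraries at 1789.6 ± 212 CPM and isolated ones at 1795 ± 196 CPM (SD, n = 3). Markers of striatal projection neurons, the main neurons of a neighbouring region, stood apart between libraries within each group: their summed level was 1305, 4054 and 461.5 CPM in control 1 to 3 and 680.7, 678.2 and 2946 CPM in isolated 1 to 3.

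The 9 genes had higher means in the isolated libraries, by 1.23-fold (Cnp) to 1.39-fold (Mog and Cldn11), and 0 of 9 passed the test. The spread within each group was as wide as or wider than that step. From the lowest to the highest control library the levels differed 1.34-fold (Opalin) to 1.85-fold (Mobp), and among the isolated libraries 1.61-fold (Opalin) to 1.94-fold (Mobp). Isolated 3 was the highest library for all 9 genes and control 1 the next highest. Control 3 was the lowest for 8 genes and control 2 for Opalin.

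Mbp, the most abundant of the 9, and Mobp encode basic proteins of the inner membrane face. Mbp encodes myelin basic protein, which binds the inner faces of the membrane to each other, and its gene lies on chromosome 18. It was measured at 2113, 1452 and 1239 CPM in control 1 to 3 and at 1660, 1740 and 3077 CPM in isolated 1 to 3. Isolated 3 stood 1.46-fold above the next library, whereas isolated 1 and isolated 2 lay inside the range of the controls. Isolated over control, the log2 difference was 0.43 (standard error 0.28, 95% interval from -0.21 to 1.07). It did not pass edgeR's quasi-likelihood test (Benjamini-Hochberg adjusted p = 0.999 over 15169 genes). Mobp, which encodes a further small basic protein of compact myelin (chromosome 9, 120149742 to 120181488, GRCm38), was at 268, 160 and 145 CPM in the controls and at 193, 210 and 374 CPM in the isolated libraries. It had the widest spread of the 9 genes, 2.59-fold between control 3 and isolated 3, and its groups overlapped in the same way (log2 difference 0.44, SE 0.31, edgeR adjusted p = 0.999).

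The next pair are membrane-spanning proteins of the compact sheath. Cldn11 encodes claudin-11, the tight junction protein of the myelin seam (chromosome 3, 31149920 to 31164326). Its levels were 153, 101 and 88.6 CPM in the controls and 126, 130 and 222 CPM in the isolated libraries. Only isolated 3 was above control 1, although all 3 isolated libraries were above control 2 and control 3 (log2 difference 0.48, SE 0.27, edgeR adjusted p = 0.999). Mal encodes a proteolipid of lipid-rich membrane domains (chromosome 2, 127633226 to 127656695). It was at 222, 159 and 141 CPM in the controls and at 173, 198 and 325 CPM in the isolated libraries, with the same order of libraries (log2 difference 0.42, SE 0.25, edgeR adjusted p = 0.999).

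The proteins of the sheath's borders followed the same order. Mag encodes the myelin-associated glycoprotein, an adhesion molecule facing the axon (chromosome 7, 30899175 to 30914922). It stood at 168, 114 and 103 CPM in the controls and at 130, 146 and 249 CPM in the isolated libraries (log2 difference 0.45, SE 0.27). Mog encodes a glycoprotein of the outermost surface of the sheath (chromosome 17, 37010740 to 37023398). It was at 52.4, 37.8 and 31.2 CPM in the controls and at 43.3, 51.5 and 74 CPM in the isolated libraries. Its p was the smallest of the 9 genes, 0.083 before and 0.999 after adjustment with edgeR, at a log2 difference of 0.47 (SE 0.24, 95% interval from -0.08 to 1.03). In Mog isolated 2 came close to control 1, the highest control, and isolated 1 did not.

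The last 3 genes encode an enzyme, a membrane protein and a protein of the cytoskeleton. Cnp encodes an enzyme that keeps channels of cytoplasm open between the compacted layers (chromosome 11, 100574909 to 100591875). It was at 300.2, 227 and 198 CPM in the controls and at 232, 253 and 409 CPM in the isolated libraries. Its log2 difference of 0.3 (SE 0.23) was the smallest of the 9. Opalin encodes a membrane protein of oligodendrocytes (chromosome 19, 41061959 to 41077113) and was the scarcest by CPM, resting on 194 to 377 expected counts per library. It was at 14.2, 10.6 and 10.8 CPM in the controls and at 12.5, 12.6 and 20.1 CPM in the isolated libraries (log2 difference 0.35, SE 0.21). Ermn encodes ermin, a protein of the cytoskeleton of mature oligodendrocytes (chromosome 2, 58045115 to 58052864). It was at 47.3, 34.3 and 27.9 CPM in the controls and at 39.1, 43.9 and 67.1 CPM in the isolated libraries (log2 difference 0.46, SE 0.25). For each of these 3 genes isolated 3 was above every control, and isolated 1 and isolated 2 were below control 1.

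**Figure D1:**
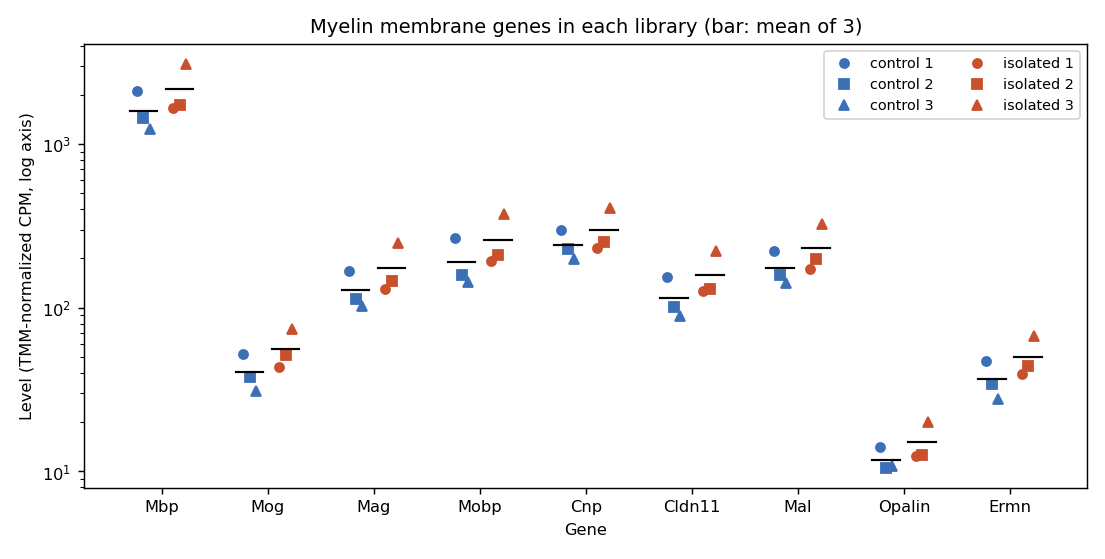
Level of each gene in CPM on a log axis for the 3 control (blue) and 3 isolated (orange) libraries, with symbols for the replicate number and a bar for the mean of 3. In every gene the triangle of isolated 3 is highest and the circle of control 1 is next, for example 3077 and 2113 CPM for Mbp.

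Read against all genes, the 9 genes shared a direction but gave no call. With edgeR 0 of 9 passed at an adjusted p under 0.05, where 0% of the 15169 tested genes passed in either direction, and 0 of 9 had an unadjusted p under 0.05, where 3.53% of all genes did, 1.52% with a higher level in isolated libraries. DESeq2 passed 0 of 9 and gave Mog and Ermn an unadjusted p below 0.05, 2 of 9, where 1.66% of all genes had one with DESeq2. With limma-voom 0 passed and 0 reached that level. All 9 had a log2 difference above 0, against 49.2% of all tested genes, and their median was 0.44, against 0 for all genes (median -0.002). Since the 9 genes move together between libraries, these 9 directions are not 9 separate observations. The groups were apart for 0 of 9, whereas 4.12% of all genes had all isolated above all control libraries and 4.73% had all isolated below. The 95% intervals of the 9 genes lie within -0.28 to 1.16, and each holds 0.

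The difference rested on isolated 3. Without it the 9 log2 differences lay between 0.001 (Cnp) and 0.23 (Mog), with a median of 0.09 in place of 0.44. Without control 1, the highest control, the median was 0.69, with 5 of 9 at an unadjusted p under 0.05 (4.83% of all genes in that fit) and 0 past the adjusted threshold of edgeR. Without control 3 it was 0.29. Control 2 and isolated 3 are the libraries with the highest striatal marker levels in their groups, and without both the median was 0.03, with Mobp and Cnp lower in the isolated libraries (-0.04 and -0.04).

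**Figure D2:**
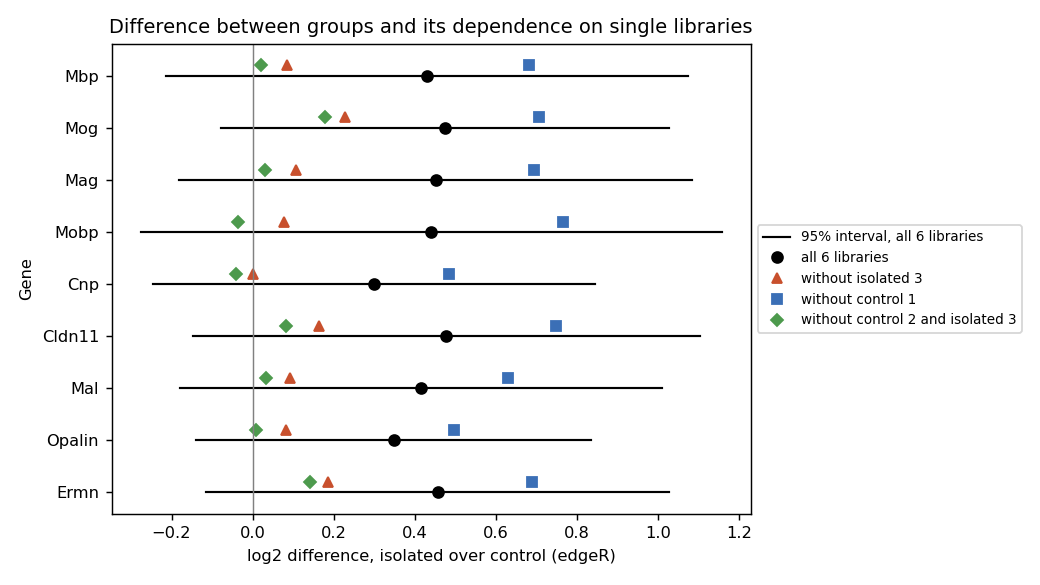
Log2 difference of isolated over control for each gene, with its 95% interval over all 6 libraries (black), and the value without isolated 3 (orange triangles), without control 1 (blue squares) and without control 2 and isolated 3 (green diamonds). All intervals cross 0, and the values without isolated 3 lie between 0.001 and 0.23.

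Set against the other genes, the myelin genes varied widely between libraries. The SD of their log2 CPM over the 6 libraries was 0.34 (Opalin) to 0.51 (Mobp), with a median of 0.43. The median over the 10007 genes with a mean of at least 10 CPM was 0.09, and 3.21% of these genes were at or above the SD of Opalin. Together the 9 genes took 0.333%, 0.231% and 0.196% of all counts in control 1 to 3 and 0.258%, 0.279% and 0.487% in isolated 1 to 3. Control 3 and isolated 3 thus mark the ends, and the other 4 libraries mix the groups.

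The 9 genes kept their proportions while the total changed. Mbp made up 62.5% to 63.9% of the counts of the 9 genes in every library. Pearson's r of log2 CPM between any pair of the 9, over the 6 libraries, ran from 0.937 (Mog and Opalin) to 0.999 (Mag and Mal) with a median of 0.986 over 36 pairs. These values are a description of 6 points that share library and depth, in which isolated 3 lies far out. Once the mean of the other 8 genes was taken off, the SD of a gene over the libraries was 0.04 (Mal) to 0.14 (Opalin) on the log2 scale.

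Some genes departed from the common pattern by small amounts. Relative to the other 8 genes Cnp stood at -0.01, 0.12 and 0.1 in control 1 to 3 and at -0.06, -0.07 and -0.09 in isolated 1 to 3, on the log2 scale after centring each gene. The groups did not overlap, with a mean difference of -0.14, for this 1 of 9 genes. Among the levels of all tested genes 4.12% had groups apart upwards and 4.73% downwards. Those shares are of levels and none was computed for such departures, so nothing is read from this 1 of 9. With 3 libraries against 3, the smallest p an exact two-sided test allows is 0.1, so it cannot pass. Opalin had the widest relative spread: it stood at 0.24 in control 3, at -0.11 in control 1 and at -0.12 in isolated 3, so it varied less than the others between low and high libraries. From control 3 to isolated 3 Opalin differed 1.86-fold and Cnp 2.06-fold, while the other 7 genes differed 2.3-fold to 2.59-fold.

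**Figure D3:**
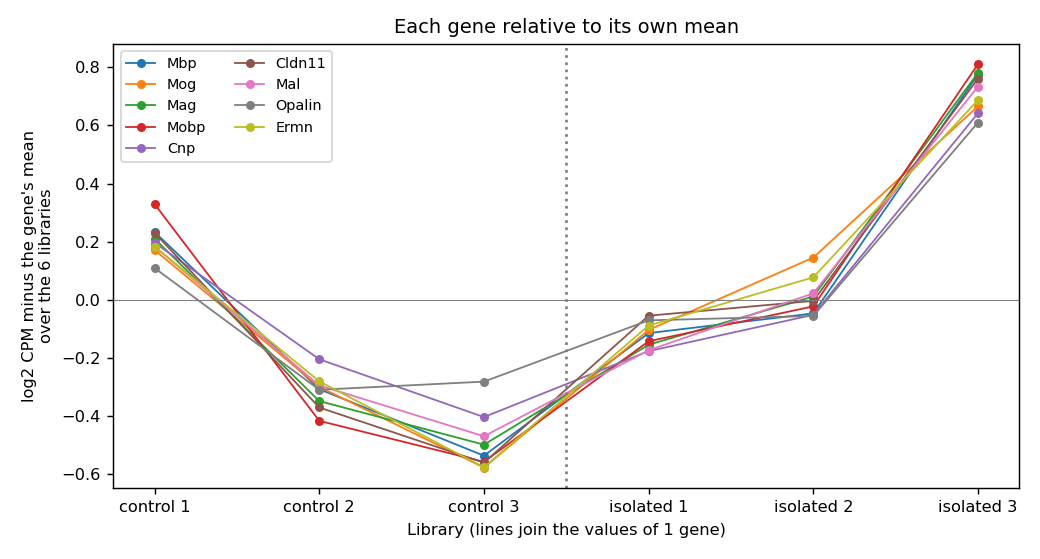
Log2 CPM of each gene minus its mean over the 6 libraries, by library, with the groups separated by a dotted line. The 9 lines run close together, from between -0.58 and -0.28 in control 3 to between 0.61 and 0.81 in isolated 3.

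Levels between genes were compared on the deposited FPKM scale, which divides by transcript length and library size. Mean FPKM over the 6 libraries was 916 for Mbp, 109.9 for Cnp, 89.8 for Mobp, 73.6 for Cldn11, 72.8 for Mal, 62.6 for Mag, 28.3 for Mog, 15.5 for Opalin and 12.2 for Ermn. Each gene was above the next in 6 of 6 libraries, except that Cldn11 was above Mal in 3 of 6. Those 2 genes did not differ beyond their spread, with a mean log2 ratio of 0.01 and an SD of 0.08. The place of Opalin depends on the length used: the tables give 892 bases, whereas the GENCODE vM21 transcript matched to the same RefSeq transcript is 1839 bases long.

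Besides level, the tables hold a mean transcript length, which for a gene with several transcripts moves with their mix. Mbp has 8 listed transcripts, made by splicing and from different start sites. Its mean length was 2061, 2075 and 2083 bases in control 1 to 3 and 2082, 2067 and 2048 bases in isolated 1 to 3. The libraries with more Mbp had the shorter mean, from 2083 bases at 1239 CPM in control 3 to 2048 bases at 3077 CPM in isolated 3, with isolated 1 out of this order. The groups overlapped (exact two-sided permutation test, p = 0.6). Mobp has 3 listed transcripts, and its mean length was 2547, 2557 and 2510 bases in the controls and 2482, 2515 and 2473 bases in the isolated libraries. Its groups overlapped through control 3 and isolated 2 (exact two-sided permutation test, p = 0.2). For Cnp, with 2 transcripts, all isolated libraries (2458, 2463 and 2459 bases) were below all controls (2465, 2467 and 2464 bases), at the smallest p that 3 against 3 allows (exact permutation test, p = 0.1). The range was 9.5 bases, or 0.39%. Of 4792 tested genes with several transcripts, 9.1% had groups apart in length, 35.2% had a wider range than the 1.68% of Mbp, and 19.1% had a wider range than the 3.41% of Mobp.

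**Figure D4:**
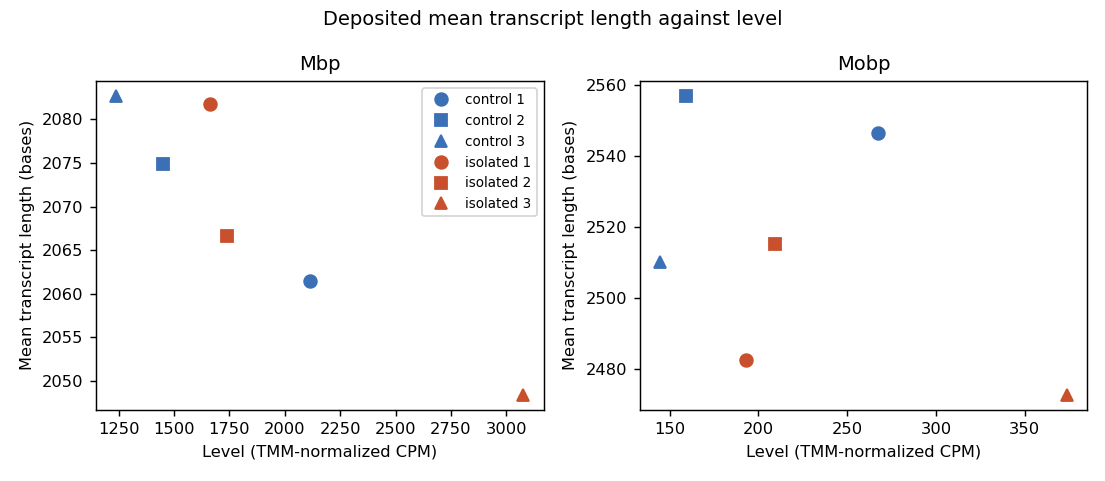
Mean transcript length in bases, as deposited, against the level in CPM for Mbp and Mobp, with 1 point per library (blue control, orange isolated). The length of Mbp is shortest, at 2048 bases, in isolated 3, where its level is highest.

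Other genes of myelin and mature oligodendrocytes, listed by role, gave 43 tested genes, of which 0 passed with edgeR and 3 had an unadjusted p under 0.05 (3.53% of all genes). Of the 43, 41 had a log2 difference above 0 (49.2% of all genes), with a median of 0.28. Isolated 3 had the highest summed level in each of these lists. As for the 9 genes, the 43 directions are therefore not 43 separate observations. The groups were apart, higher in isolated libraries, for 1 (Cdc42ep1), where 4.12% of all genes were. Among other membrane proteins 10 of 11 were above 0. Tspan2, which encodes a tetraspanin of the oligodendrocyte membrane, was at 107 ± 15.5 CPM in the controls against 134 ± 30.6 CPM after isolation (SD, n = 3). Gpm6b, a proteolipid gene that neurons and astrocytes also express, was the exception at -0.03. Of the enzymes that make and turn over myelin lipids 5 of 5 were above 0 (median 0.3), with the galactolipid enzyme gene Ugt8a at 43.5 ± 9.29 CPM in the controls against 53.4 ± 14.7 CPM after isolation (SD, n = 3). Fa2h, which hydroxylates the fatty acids of these lipids, was at 35.9 ± 11.7 and 44.5 ± 13.1 CPM.

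Of the oligodendrocyte gap junction genes, which encode connexins, Gjb1 had a log2 difference of 0.53 and Gjc3 of 0.3, with 0 passing. Genes of axon contact and the node, which neurons share in part, were 4 of 4 above 0 at a lower median of 0.12, with the adhesion molecule gene Nfasc at 421 ± 32.5 and 462 ± 45.9 CPM (SD, n = 3). Of the transcription factor genes 5 of 5 were above 0 (median 0.26). Zfp488 was so by only 0.019 (SE 0.054) and stayed between 114.9 and 125.1 CPM in all 6 libraries. Olig1, which acts in oligodendrocyte maturation, was at 85.5 ± 10.5 and 102 ± 22.4 CPM, and Sox10, which acts throughout the lineage, at 39 ± 10.2 and 42.4 ± 10 CPM (SD, n = 3). In the cytoskeleton list 5 of 5 were above 0. Among them Tppp was at 0.065 (SE 0.082) and was lower in isolated 3 (612 CPM) than in control 3 (686 CPM). In the list of metabolic and secreted proteins 9 of 10 were above 0, with the transferrin gene Trf at 193 ± 37.8 and 262 ± 80.9 CPM (SD, n = 3). Trf was at 209 and 222 CPM in isolated 1 and 2, below the 234 CPM of control 1, and at 355 CPM in isolated 3. None of these genes passed with edgeR. The 3 with an unadjusted p under 0.05 were Anln, Cdc42ep1 and Gsn, at log2 differences of 0.62, 0.29 and 0.47.

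The summed level of the 9 genes differed 2.43-fold between its lowest and highest library, 1983 CPM in control 3 and 4816 CPM in isolated 3. For 9 genes of newly formed oligodendrocytes the lowest and highest sums were 302 and 463 CPM (1.54-fold), and for 13 progenitor genes 406 and 482 CPM (1.19-fold). Lists of mature oligodendrocytes lay on both sides of the 1.54-fold, and none was below the progenitor genes. Above it were the lipid enzymes (1.9-fold), gap junction genes (1.86-fold), other membrane proteins (1.72-fold) and metabolic and secreted genes (1.62-fold). Below it were the transcription factors (1.46-fold), axon contact and node genes (1.31-fold) and the cytoskeleton list (1.2-fold). Abundant genes weigh most in such sums. For the mean log2 level, with each gene centred, the range was 0.285 for progenitor and 0.467 for newly formed oligodendrocyte genes. It was 0.561 (cytoskeleton) to 1.17 (gap junction) for these mature lists. The highest progenitor sum was in control 2, at 482 CPM, where the myelin genes were the second lowest. Between the groups 4 of 9 newly formed oligodendrocyte genes and 6 of 13 progenitor genes were above 0, with medians of 0 (-0.004 and -0.001), and 0 passed with edgeR (1 and 0 at an unadjusted p under 0.05, the 1 being the growth factor gene Bmp4 at a log2 difference of 0.49). Within the first list Bcas1, which marks the stage when myelin is first made, had its lowest level in control 3, 82.2 CPM, and its highest in isolated 3, 212 CPM, whereas the kinase gene Fyn stayed between 116 and 122 CPM in all 6 libraries. The progenitor receptor gene Pdgfra was at 43.4, 52.8 and 50.2 CPM in the controls and at 45.5, 51.5 and 46.1 CPM in the isolated libraries. Whether the myelin list differs from the progenitor list between the groups was not tested.

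Other cell classes were measured beside these genes. The summed astrocyte markers lay between 4232 and 4799 CPM and the microglial markers between 312 and 358 CPM, and for both isolated 3 was below control 3. The groups were apart, lower in isolated libraries, for 2 of 9 astrocyte, 4 of 8 microglial and 2 of 8 vascular markers, where 4.73% of all genes were. With edgeR 0 of these passed, and 1, 2 and 1 had an unadjusted p under 0.05. The vascular markers summed to 293, 313 and 285 CPM in the controls and to 261, 275 and 259 CPM in the isolated libraries, which were all below the controls. The cortical excitatory neuron markers summed to 7047, 6118 and 7730 CPM in the controls and to 7341, 7283 and 5965 CPM in the isolated libraries, with the lowest sums in control 2 and isolated 3. The striatal sums were highest in these same 2 libraries, 4054 and 2946 CPM, where the myelin sums were 2296 CPM (control 2) and 4816 CPM (isolated 3). Among the other libraries both sums were highest in control 1, at 1305 CPM (striatal) and 3338 CPM (myelin). Both were lowest in control 3, at 461.5 and 1983 CPM. With the striatal level as a covariate the 9 log2 differences lay between 0.28 and 0.47, and 0 of 9 passed with edgeR (2 at an unadjusted p under 0.05, where 6.12% of all genes were in that fit). Of the Schwann cell genes, which mark myelin of peripheral nerves, 4 of 7 could be tested. Their sum was 33.25, 26.63 and 30.4 CPM in control 1 to 3 and 28, 32.3 and 37.76 CPM in isolated 1 to 3. Pmp2 and Dhh had too few reads to be tested, with means of 0.013 and 0.043 FPKM. Of the choroid plexus and ependyma markers 5 of 8 could be tested, and their sum was 14.1, 13.1 and 10.9 CPM in the controls and 13.8, 13.5 and 26.2 CPM in the isolated libraries, also highest in isolated 3. Within the list Foxj1 was at 12.1 CPM in isolated 3 and at 2.8 to 6.43 CPM elsewhere, whereas Kl was highest in control 2 (4.03 CPM). With edgeR 0 of 5 passed. The groups were apart, higher in isolated libraries, for 1 (Ttr), where 4.12% of all genes were. Ttr was also the 1 gene at an unadjusted p under 0.05, where 3.53% of all genes were. The part of any of these cell classes in the myelin values was not tested. In whole tissue, more oligodendrocytes and more RNA per oligodendrocyte cannot be told apart.

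**Figure D5:**
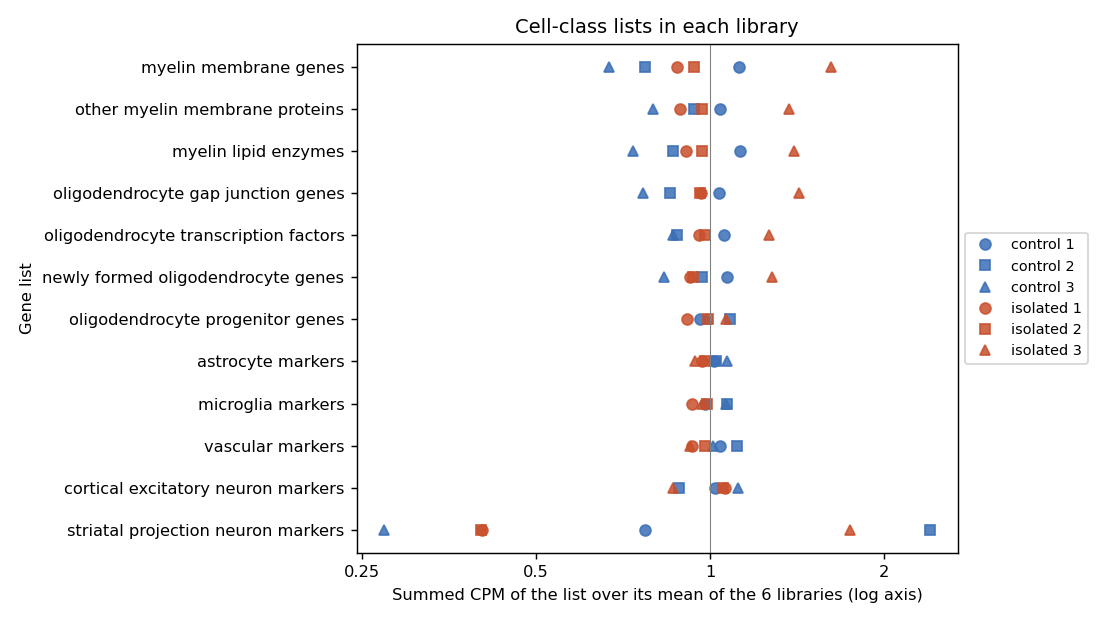
Summed CPM of each gene list in each library, divided by the mean of the list over the 6 libraries, on a log axis (blue control, orange isolated, symbols for the replicate number). The myelin genes span 1983 to 4816 CPM with isolated 3 at the top, the progenitor genes 406 to 482 CPM.

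The genes most like these 9 in pattern were named by Pearson's r with the mean log2 CPM of the 9, over the 6 libraries, among 1640 other genes of at least 5 CPM and an SD of at least 0.2. Plekhb1, a membrane-associated protein gene, came first (r = 0.999) and Myrf, the transcription factor that switches on myelin genes, second (r = 0.999). Myrf was at 73.1, 49.5 and 43.5 CPM in the controls and at 59, 63.2 and 103 CPM in the isolated libraries, and it matched the 9 genes in size as well, with a slope of 1.03 against their mean. The next 8 were Tmem63a, Plekhh1, Tmem88b, Slc44a1, Pllp, Trim59, Cers2 and Trf, with r from 0.994 down to 0.990 and slopes from 0.47 (Cers2) to 0.93 (Plekhh1). Of the 10 genes 7 were in the lists of myelin genes above, and Plekhh1, Slc44a1 and Trim59 were not. Slc44a1 encodes a choline transporter and was at 67.3, 54.8 and 50.6 CPM in the controls and at 56.2, 62.3 and 86.8 CPM in the isolated libraries. The ranking is a description of 6 points, with isolated 3 far from the rest.

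The DNA just before start sites of Mag, Cnp, Mog, Mobp and Opalin is shown. The letters known from 2 families of oligodendrocyte factors are in capitals, and these stretches were chosen because they hold such letters. Whether these factors have a part in the shared variation of the levels between libraries was not tested. The letters CTGGCAC are a form of the sequence that the protein of Myrf binds (GTGCCAG when read on the other strand). Another form of that sequence is CTGGTAC (on the other strand, GTACCAG). A form of the core bound by SOX proteins such as that of Sox10 is ACAAAG (on the other strand, CTTTGT). The stretches are from RefSeq on GRCm38.p6, 5′ to 3′ on the strand of the gene, and hold no annotated exon.
Mag, chr7:30914923-30915042, minus strand, ending 1 base before a start: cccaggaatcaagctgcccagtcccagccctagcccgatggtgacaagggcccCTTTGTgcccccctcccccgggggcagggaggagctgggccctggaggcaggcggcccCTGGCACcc
Cnp, chr11:100574759-100574878, plus strand, ending 61 bases before a start: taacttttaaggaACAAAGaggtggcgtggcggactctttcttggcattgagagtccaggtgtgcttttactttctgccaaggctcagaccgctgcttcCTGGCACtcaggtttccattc
Mog, chr17:37023399-37023518, minus strand, ending 1 base before a start: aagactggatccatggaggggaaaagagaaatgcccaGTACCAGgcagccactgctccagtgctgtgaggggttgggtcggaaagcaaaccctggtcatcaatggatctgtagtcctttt
Mobp, chr9:120149492-120149641, plus strand, ending 101 bases before a start: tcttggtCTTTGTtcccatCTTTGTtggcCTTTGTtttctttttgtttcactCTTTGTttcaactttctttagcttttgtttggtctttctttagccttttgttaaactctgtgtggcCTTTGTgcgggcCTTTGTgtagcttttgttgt
Opalin, chr19:41077174-41077293, minus strand, ending 61 bases before a start: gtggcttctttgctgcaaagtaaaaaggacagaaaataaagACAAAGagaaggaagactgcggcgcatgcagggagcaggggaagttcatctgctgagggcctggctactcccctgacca

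The table held starts for 8 of the 9 genes, 10 starts in all with 3 for Mag, and the 250 bases before each were searched on both strands. CTGGCAC was found for 2 of 8 genes (Mag and Cnp) and CTGGTAC for 1 (Mog). By start this was 3 of 10 and 1 of 10, against 4.19% and 1.83% of the 32851 starts of all genes. Overlapping windows of Mag shared their CTGGCAC and ACAAAG matches. ACAAAG was found for 4 of 8 genes (Mag, Mobp, Cnp and Opalin), or 5 of 10 starts, against 16.5% of all starts. Mobp held 6 copies within 150 bases. Of 6 further motifs searched, CCAAT was found for 3 of 8 genes, or 4 of 10 starts (33.8% of all starts). Of the others ACAATG was found for 1 gene (Ermn, 10.7% of all starts), as was CAGATG for Opalin (14.4%) and GGGCGG for Cnp (32.7%). For 0 genes the search found TATAAA, against 12.4% of all starts, or the palindrome CAGCTG, against 13% of all starts. A match is a description of the letters and not a site of binding. In these windows Mag and Cnp held both kinds of match shown in capitals, while Mal, Cldn11 and Ermn held neither.

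Some reads of these genes could not be assigned without doubt. Expected counts were not whole in 6 of 6 libraries for Mbp and Ermn and in 5 for Mobp, as happens where a read matches more than 1 gene and is shared out between them. Exons of Galnt5 on the other strand cover 6.5% of the exon bases of Ermn and those of Dnajc7 4.2% of Cnp. Exons of Gm38642 on the same strand cover 1.2% of Mobp, and the other 6 genes had no overlapping exon of another gene in GENCODE vM21.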

How the data were processed

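Total RNA of the medial prefrontal cortex was sequenced on a BGISEQ-500 instrument, per the labels' protocols. Per the submitters' processing notes, HISAT, Bowtie2, RSEM and build mm10 were used, and versions and strand use are not given in the sources used here. The authors deposited for each library an expected count per gene, not normalized, an FPKM value scaled by length and library size, and a transcript length. A further series table, with 6 columns whose codes no label gives, was not used here. A gene absent from a table was given 0, the entry without a symbol (at most 0.00095% of reads) was left out, and 19899 of 19943 gene IDs matched RefSeq GRCm38.p6 for symbols and coordinates.

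Expected counts, rounded, went into edgeR 4.0.16 (R 4.3.3): filterByExpr (minimum count 10, total 15; 15169 genes kept, all 9 members among them, 4774 removed), TMM, quasi-likelihood F-test, no covariates, Benjamini-Hochberg adjustment, threshold 0.05. Standard errors come from the fold change and F. Log2 CPM used a prior count of 2. The test was checked on simulated data. It recovered 37.5% of changed genes at a log2 change of 0.5 and 88.5% at 1, with 3.8% and 2.2% of calls false. The simulated spread was that typical of genes at each level. The 9 genes varied more widely than most, so these shares may not hold for them. Depths cover counting error only. No pair of libraries agreed within sampling noise (chi-square per gene 2.89 or more). Alternatives were DESeq2 1.42.0, limma-voom (limma 3.58.1), RLE factors, no filter, log2(FPKM + 1) and log2(FPKM + 0.1) in genes of mean FPKM at least 0.5, log2(FPKM + 1) without that minimum, a replicate block, leaving out libraries, and a striatal covariate. Genes named beyond the 9 are up to 3 of the highest mean FPKM per list, the 10 most alike in pattern, and further list genes chosen after their values were seen. The members and lists were chosen with earlier results of these data known. Some genes of these lists are not reported here by name.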

Additional observations from a re-analysis of the deposited data

How the results depend on the processing

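Under every alternative 0 of the 9 genes passed. All 9 kept a higher mean in isolated libraries under every alternative but one. That one, leaving out control 2 and isolated 3, gave -0.035 for Mobp, -0.04 for Cnp and a median of 0.031 for the 9 genes in place of 0.441. Leaving out 1 library gave medians from 0.093 (without isolated replicate 3) to 0.689 (without control replicate 1), and 0 genes called in all 6 cases. Other tests, scalings, filters and pseudocounts gave medians from 0.417 to 0.443, and the striatal covariate 0.41. DESeq2, run without the count filter, called 1 gene of the whole table, Fkbp5. It gave 331 of 19893 genes an unadjusted p under 0.05, against 535 of the 15169 filtered genes with edgeR. Among all genes 929 had an unadjusted p under 0.05 with the striatal covariate and 860 without control replicate 3, with 0 called in both. With the replicate number as a block the median was 0.423, with 0 genes called and 331 at an unadjusted p under 0.05. The numbers share no sign of pairing: same-numbered libraries correlated at 0.025, -0.269 and -0.492, and no library correlated best with its own number. The spread between 3 libraries, rather than depth, set the width of the intervals for these genes, the scarcest of which had 194 expected counts.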
